A study of Arabidopsis thaliana with 12 samples.

Results

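The NAC transcription factor genes are the protein-coding genes of *Arabidopsis thaliana* whose annotated symbol is NAC or ANAC followed by digits, without the CUC, VND and NST loci. This rule found 74 genes among the 37899 annotated genes of chromosomes 1 to 5, and it used no measured value. H3K27me3 at these genes was measured by ChIP-seq in whole seedlings of 4 genotypes grown for 14 days, namely *brm-1*, *clf-29*, the double mutant of these alleles (*brm-1 clf-29*), and wild-type Col. Per the study's methods *brm-1* is a null T-DNA insertion allele of *BRAHMA* (BRM), *clf-29* is a T-DNA insertion allele of CURLY LEAF (CLF), and both are in the Col background. All samples thus share the Col background, the age, the long-day growth and the anti-H3K27me3 antibody, and each genotype was represented by 2 independent ChIP libraries and 1 input library without replicate. A seedling mixes all tissues, so the mark in a part of the cells and a lower level in every cell cannot be told apart.

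NAC proteins are a plant-specific family of transcription factors that share a DNA-binding NAC domain, and members act in vascular and root cap differentiation, leaf senescence, stress responses and the embryo. H3K27me3 is the histone mark of transcriptional repression that Polycomb Repressive Complex 2 (PRC2) deposits, and CLF and *SWINGER* (SWN) are its main methyltransferases in vegetative tissue. BRM is the ATPase of a SWI/SNF chromatin remodeler and belongs to the Trithorax group, which counteracts Polycomb. The comparisons address whether the loss of either protein, or of both, alters the mark at these genes.

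The promoters of 4 genes are printed because the results turn on them, the first 3 for genes with more mark in *clf-29* and the last for the marked gene with less mark in the double mutant than in *brm-1*. Each line gives the 250 bases before the annotated start, 5′ to 3′ on the strand of the gene, from the RefSeq assembly TAIR10.1. Capitals mark a GA repeat (GAGAGA or its reverse complement), a motif known in plants for the recruitment of PRC2. The *NAC088* promoter lies on the plus strand at chr5:6057523-6057772, that of *NAC057* on the plus strand at chr3:6064022-6064271, that of *NAC097* on the plus strand at chr5:20678972-20679221 and that of *NAC071* on the minus strand at chr4:9980556-9980805.
NAC088: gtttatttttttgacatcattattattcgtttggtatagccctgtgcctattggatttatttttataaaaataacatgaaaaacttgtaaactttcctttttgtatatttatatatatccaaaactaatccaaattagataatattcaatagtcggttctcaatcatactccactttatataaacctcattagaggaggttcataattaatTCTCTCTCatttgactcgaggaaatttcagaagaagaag
NAC057: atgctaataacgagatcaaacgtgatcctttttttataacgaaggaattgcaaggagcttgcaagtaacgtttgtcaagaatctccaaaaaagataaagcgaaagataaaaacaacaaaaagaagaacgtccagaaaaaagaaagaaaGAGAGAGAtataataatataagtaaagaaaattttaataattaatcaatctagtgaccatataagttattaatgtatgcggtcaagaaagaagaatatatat
NAC097: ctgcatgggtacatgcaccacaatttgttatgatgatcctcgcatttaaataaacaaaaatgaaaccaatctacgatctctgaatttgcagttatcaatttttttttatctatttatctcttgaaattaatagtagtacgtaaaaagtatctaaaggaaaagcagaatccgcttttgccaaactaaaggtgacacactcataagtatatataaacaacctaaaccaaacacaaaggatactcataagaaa
NAC071: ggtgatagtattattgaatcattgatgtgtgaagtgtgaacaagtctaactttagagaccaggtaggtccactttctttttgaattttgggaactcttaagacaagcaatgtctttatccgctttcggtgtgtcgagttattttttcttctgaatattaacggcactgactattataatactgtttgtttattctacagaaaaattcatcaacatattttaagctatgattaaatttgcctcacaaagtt

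The repeat stood in the promoters of *NAC088* and *NAC057* and in neither of the others. Over a window from 250 bases before to 50 bases after the start, both strands searched, GAGAGA was found in 21 of the 74 NAC promoters (28.4%) and in 29.2% of the 27444 protein-coding promoters. It was found in 12 of the 35 NAC genes in an H3K27me3 region of Col (34.3%) and in 9 of the 38 NAC genes outside every region (23.7%). Over all protein-coding promoters GAGAGA was about as frequent in both sets, at 28.8% for genes in a Col region and 29.5% for genes outside every region. The telobox AAACCCTA, another motif known for PRC2 recruitment, was found in 9 NAC promoters (12.2%) and in 6.22% of all protein-coding promoters. It was found in 2 of the 35 NAC genes in a Col region (5.71%) and in 6 of the 38 outside (15.8%), and over all protein-coding promoters in 7.45% of those of genes in a Col region and 5.88% of those outside every region. The 4 promoters printed hold no telobox, so no match overlaps another. These are matches of letters, with no test.

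The ChIP libraries kept 2112103 to 3654258 reads after repeated reads at a position and strand were reduced to 1, and levels are given as reads per 1000000 kept reads (RPM), or RPM per kb of gene where genes are compared. The replicates of a genotype correlated across tested genes with r from 0.956 to 0.967. The share of kept reads inside the regions of Col was 71.4% and 74.2% in *brm-1*, 75.8% and 76.6% in *clf-29*, 75.1% and 76.1% in the double mutant, and 59.2% and 59.3% in Col, while the inputs had 16.3% to 16.9%. The median level of genes outside all regions was lower in the mutants, at 0.880 and 1.40 RPM per kb in *brm-1*, 1.29 and 1.45 in *clf-29*, 1.12 and 1.29 in the double mutant, against 2.99 and 3.07 in Col. Since RPM are shares of a library, a difference in this background moves all values of a genotype. Whether the background comes from the seedlings or from the immunoprecipitation cannot be told apart, because it goes with the genotype. Both alleles are insertions, so reads at BRM and CLF do not check the labels.

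About as many NAC genes lay inside chromatin regions enriched in H3K27me3 as outside. Regions were counted where both replicates of a genotype were enriched over its input. Of the 74 genes, 34 lay in such a region in *brm-1*, 31 in *clf-29*, 33 in the double mutant and 35 in Col. In all, 36 lay in a region of at least 1 genotype, 31 of these in every genotype, and 38 lay in none. The share in a Col region was 47.3% of the NAC genes, 70.4% of the 115 genes with an MYB symbol, 53.7% of the 67 with a WRKY symbol and 25.4% of all protein-coding genes. Of the 13 excluded CUC, VND and NST loci, 12 lay in a Col region (92.3%).

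The median ratio of ChIP to input over the 36 was 4.58 in *brm-1*, 5.91 in *clf-29*, 5.50 in the double mutant and 4.22 in Col. Over the 38 outside it was 0.205, 0.215, 0.187 and 0.417 in the same order of genotypes. In each genotype 1 of the 36 was below the input, and 2 of the 38 were above it in *brm-1* and in Col. In Col the 36 ranged from 7.29 to 63.3 RPM per kb with a median of 32.1, and the 38 ranged from 1.05 to 12.98 with a median of 3.03. Because the regions were called from these reads, the gap between the sets restates the calling and is given without a test.

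**Figure D1:**
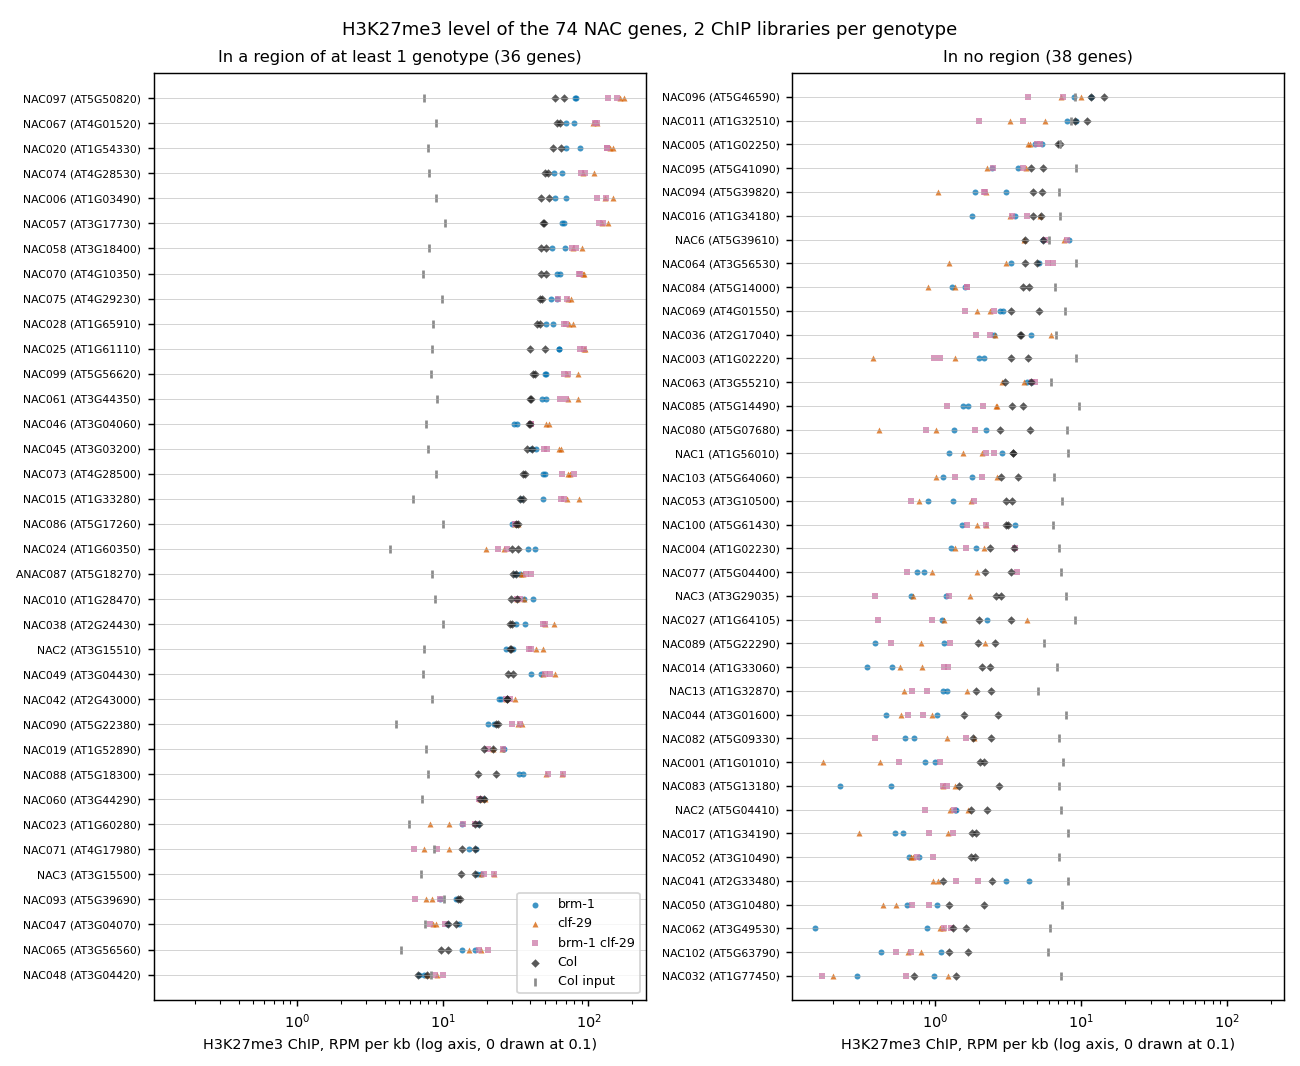
H3K27me3 level of the 74 NAC genes in RPM per kb of gene (log axis), with 1 point for each ChIP library and 1 colour for each genotype. The left panel holds the genes in a region, with Col means from 7.29 to 63.3, and the right panel the genes outside, with Col means from 1.05 to 12.98.

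The 10 highest NAC genes in Col spanned 45.3 to 63.3 RPM per kb. *NAC097* was the highest at 63.3 RPM per kb, followed by *NAC067* at 62.2 and by *NAC020* at 60.9, a gene of early phloem development. *NAC074* (*KIR1*, which ends the life of the stigma) had 51.3, *NAC006* had 50.3, and both *NAC057* and *NAC058* had 49.2. *NAC070* (*BRN2*, of root cap maturation) had 49.0, *NAC075*, an upstream regulator of the vessel gene *VND7*, had 47.4, and *NAC028* had 45.3. The order within this set was not tested.

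Roles were taken from short lists that are not complete, so the counts by role hold for the listed members only. Of all 74 members 48.6% lay in a region of at least 1 genotype, as did 18 of the 39 members without a listed role. By known role, all 6 members listed as vascular lay in a region. These were *NAC073* (*SND2*) and *NAC010* (*SND3*) of secondary wall formation, *NAC075*, *NAC020*, and *NAC045* and *NAC086*, which act in the enucleation of sieve elements. So did all 3 root cap members, *NAC015* (*BRN1*), *NAC070* (*BRN2*) and *ANAC087*, and both seed members, *NAC025* and *NAC2* (AT3G15510, *NARS1*). Of 5 stress members 3 lay in a region, *NAC019* and *NAC3* (AT3G15500, *NAC055*), which act in jasmonate and abscisic acid responses, and *NAC047*. Of 6 senescence members 2 did, *NAC046* and *NAC042* (*JUB1*, a regulator of longevity). The senescence promoters *NAC6* (AT5G39610, *ORE1*), *NAC3* (AT3G29035, *ORS1*) and *NAC016* were outside, with Col levels of 4.81, 2.72 and 4.99 RPM per kb. Of 8 members with a membrane anchor only *NAC060*, a gene of sugar and abscisic acid signalling, lay in a region. None of the 3 members listed as cut by miR164, *NAC1*, *NAC080* and *NAC100*, did, and this list does not hold every member that miR164 cuts.

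In *brm-1* no NAC gene rose by more than 2-fold. The largest changes among genes in a region were at *NAC088* (log2 change 0.75 ± 0.18 SE) and *NAC049* (0.58 ± 0.13). *NAC049* had 60.1 and 69.9 RPM in *brm-1*, against 41.3 and 45.0 in Col. Every *brm-1* library was above every Col library there, by less than 2-fold. Of the 69 genes that passed the count filter, 0 were called higher in *brm-1* than in Col, where a call needs more than 2-fold and an adjusted p under 0.05 (limma). The background was 0.346% of all 32062 genes tested and 0.929% of those in a region. The same test gave 0 with limma-voom, and 19 members were higher at an unadjusted p under 0.05. By the adjusted p alone 18 were higher, all of them in a region, beside 9.59% of all tested genes and 29.4% of the 10337 tested genes in a region. This count was 10 without Col replicate 1, 7 without Col replicate 2 and 10 without *brm-1* replicate 2. It was 4 scaled on the genes of Col regions, 44 scaled on those outside all regions, 39 scaled on all tested genes, 4 with the background taken off and 0 with it taken off and rescaled. The median log2 change of the 36 NAC genes in a region was 0.26, against 0.24 for all genes in a region, and 28 of the 36 were above 0.

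*NAC046*, a promoter of chlorophyll breakdown in senescence, was the one region member lower in *brm-1* by the adjusted p, where 3.02% of the tested genes in a region were. It had 59.5 and 57.1 RPM in *brm-1*, 93.9 and 98.5 in *clf-29*, 73.9 and 73.8 in the double mutant, and 73.1 and 71.9 in Col. The groups do not overlap between *brm-1* and Col or between *clf-29* and Col. The log2 change was -0.31 ± 0.12 in *brm-1* (adjusted p 0.0323, limma) and 0.40 ± 0.12 in *clf-29* (adjusted p 0.0071, limma), both short of 2-fold. Scaled on the genes outside all regions, the *brm-1* value turned to 1.02.

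In *brm-1* 11 of the 69 members tested were called lower, where 38.5% of all tested genes were. All 11 were among the 33 tested members outside regions, beside 56.2% of all tested genes outside regions. They include *NAC014*, *NAC017*, *NAC053*, *NAC062* and *NAC089*, 5 of the 8 members with a membrane anchor, which are known for retrograde, proteasome and endoplasmic reticulum stress signalling. Of these 8 members 3 were called lower in *clf-29* and 2 in the double mutant. Of all tested genes outside regions 44.5% and 54.9% were, in the same order. No role was tested as a set. *NAC017* had 1.67 and 1.88 RPM in *brm-1*, against 6.02 and 5.63 in Col, and its ratio of ChIP to input in Col was 0.226. *NAC053* had 3.89 and 2.63 RPM in *brm-1*, against 9.03 and 9.94 in Col. Both genes were below the input in every genotype. After subtraction of each library's background, 0 members were called lower in *brm-1*, and leaving out either Col library or *brm-1* replicate 2 left 1. The split of 0 higher and 11 lower became 40 and 0 under scaling on genes outside every region, and 26 and 1 when scaled on all tested genes.

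In *clf-29* the mark was higher at a set of already marked NAC genes. In all 7 rose more than 2-fold, *NAC088*, *NAC006*, *NAC097*, *NAC057*, *NAC020*, *NAC015* (*BRN1*) and *NAC025*, all in a region in every genotype. This is 7 of 69 members, where 4.63% of all tested genes were called higher. It is 7 of the 36 members in a region, where 14.2% of the 10337 tested genes in a region were. By the adjusted p alone 24 members were higher, beside 14.1% of all tested genes and 43.2% of those in a region, and 8 were with the background taken off and rescaled. The median log2 change of the 36 members in a region was 0.69, against 0.26 for all genes in a region, and 30 of the 36 were above 0.

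*NAC088*, a short gene of 444 bp counted over 1000 bp, had the largest change. It had 33.7 and 35.7 RPM in *brm-1*, 50.8 and 65.8 in *clf-29*, 53.2 and 66.7 in the double mutant, and 17.5 and 23.2 in Col, with 7.89 RPM in the Col input. Each mutant library was above both Col libraries, and the *clf-29* values rest on 132 and 139 reads, those of Col on 64 and 70. The log2 change was 1.48 ± 0.18 SE in *clf-29* (adjusted p 3.92e-07, limma), 1.52 ± 0.18 in the double mutant (adjusted p 2.82e-07, limma) and 0.75 ± 0.18 in *brm-1* (adjusted p 0.00284, limma). The calls in *clf-29* and in the double mutant were made under each of the 12 alternatives and each of the 8 fits without 1 library. Scaled on the genes of Col regions, *NAC088* was the only member called higher in the double mutant, and with the background taken off and rescaled it was the only one in the double mutant and in *clf-29*.

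*NAC097* had 86.8 and 84.9 RPM in *brm-1*, 172 and 183 in *clf-29*, 165 and 142 in the double mutant, and 62.1 and 71.2 in Col. *NAC057* had 127 and 130 RPM in *brm-1*, 238 and 260 in *clf-29*, 225 and 240 in the double mutant, and 93.6 and 94.4 in Col. *NAC006* had 72.9 and 60.9 RPM in *brm-1*, 152 and 133 in *clf-29*, 136 and 118 in the double mutant, and 55.3 and 48.7 in Col. At all 3 genes the lowest *clf-29* library was above the highest *brm-1* and Col libraries, the highest library of all was of *clf-29*, and both *brm-1* libraries were above both Col libraries. Their log2 changes in *clf-29* were 1.41 ± 0.11 (*NAC097*), 1.39 ± 0.09 (*NAC057*) and 1.44 ± 0.12 (*NAC006*).

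The phloem gene *NAC020* had 101 and 126 RPM in *brm-1*, 202 and 214 in *clf-29*, 193 and 194 in the double mutant, and 83.2 and 93.1 in Col, a log2 change of 1.23 ± 0.10 in *clf-29*. *NAC015* (*BRN1*), which acts with *BRN2* in root cap maturation, had 65.9 and 47.0 RPM in *brm-1*, 117 and 97.1 in *clf-29*, 92.1 and 87.5 in the double mutant, and 46.2 and 48.4 in Col, a change of 1.15 ± 0.14. *NAC025*, expressed in the seed, had 161 and 157 RPM in *clf-29*, against 85.4 and 67.2 in Col, a change of 1.06 ± 0.11. These 3 were the smallest changes called. Without Col replicate 2 the change of *NAC025* was 0.89 and its call was lost. *NAC073* (*SND2*) was just short of the threshold, with 137 and 141 RPM in *clf-29*, against 70.1 and 67.9 in Col, a log2 change of 0.997 ± 0.11.

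The other marked genes of the same roles did not pass 2-fold in *clf-29*. *NAC070* (*BRN2*) changed by 0.91 ± 0.09, *NAC045* by 0.71 ± 0.08 and *NAC075* by 0.65 ± 0.07 on the log2 scale, each with an adjusted p under 0.05 (limma). By role, 1 of 6 vascular, 1 of 3 root cap and 1 of 2 seed members, all in a region, were called higher. So were 4 of the 37 tested members without a listed role, 18 of which lay in a region. None of the 3 stress members in a region was. Of all tested genes in a region 14.2% were called higher. Scaling on the genes of Col regions, which moved the median of all region genes to -0.04, left 4 higher calls (*NAC088*, *NAC006*, *NAC097* and *NAC057*) and 20 lower ones. The main split of 7 higher and 12 lower became 32 and 0 scaled on the genes outside all regions, 24 and 2 scaled on all tested genes, 11 and 1 with the background taken off, and 1 and 4 with the background taken off and rescaled.

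**Figure D2:**
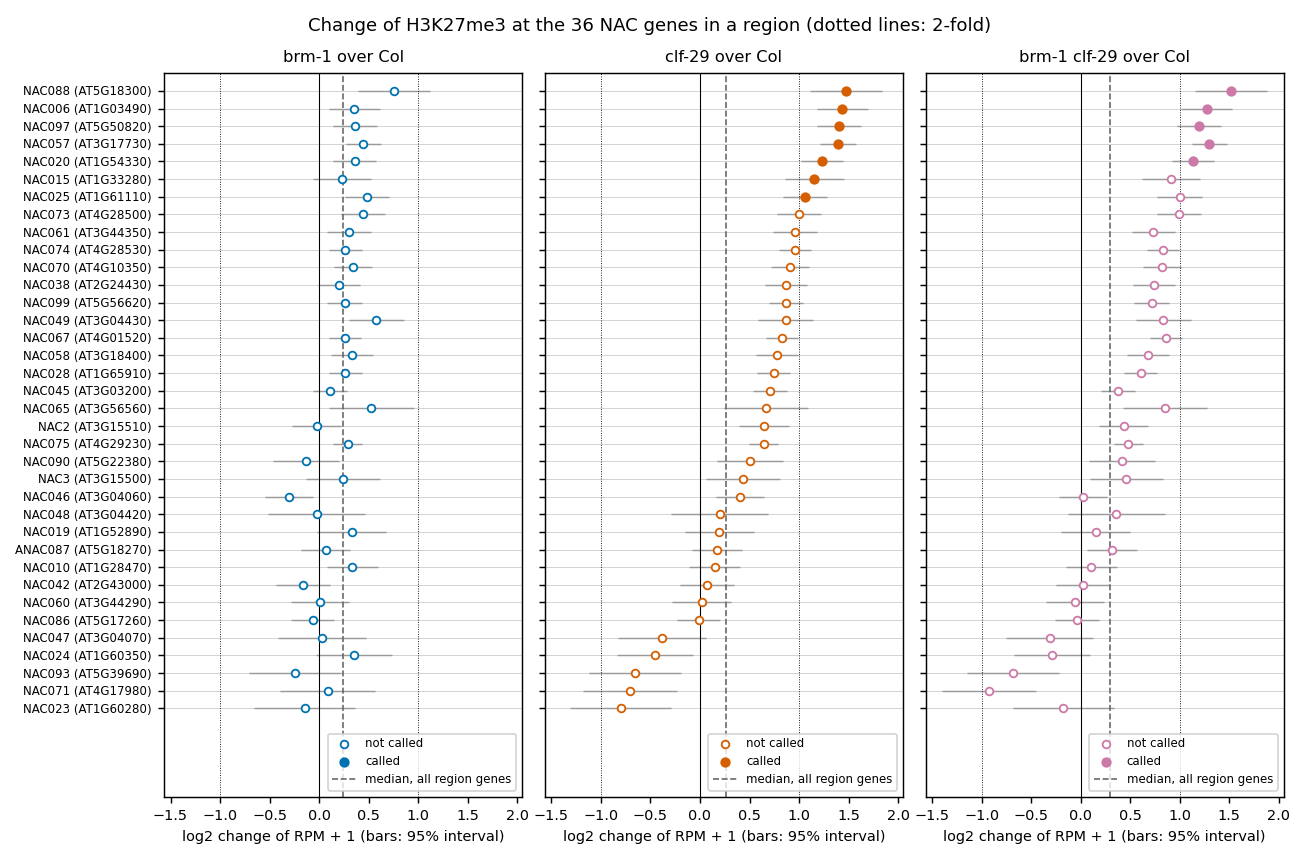
Log2 change of RPM + 1 over Col at the 36 NAC genes in a region, in *brm-1*, *clf-29* and the double mutant, with 95% intervals from limma. Filled points are called, open points are not, dotted lines mark 2-fold and the dashed line is the median of all genes in a region. No gene is called in *brm-1*, 7 are in *clf-29* and 5 in the double mutant.

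**Figure D3:**
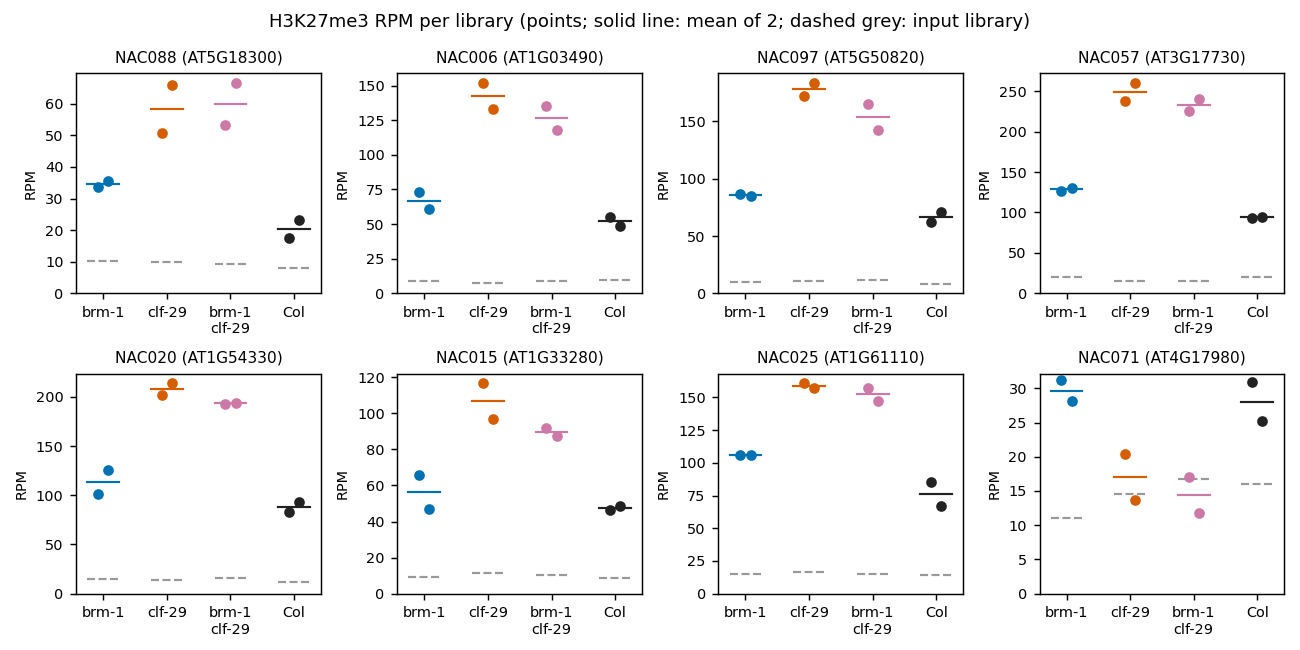
RPM of 8 NAC genes in each ChIP library (points), with the mean of both replicates (solid line) and the input of the genotype (dashed line). The first 7 genes have both *clf-29* libraries above both Col libraries. *NAC071* has lower values in *clf-29* and the double mutant than in *brm-1* and Col.

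Of the marked NAC genes 4 were lower in *clf-29* by the adjusted p alone, *NAC071*, *NAC023*, *NAC093* and *NAC024*, named after their values were seen except *NAC071*. *NAC023* had 11.6 and 8.52 RPM in *clf-29*, against 17.5 and 18.5 in Col, with a log2 change of -0.80 ± 0.25. *NAC093* had 16.9 and 15.6 RPM in *clf-29*, against 26.5 and 25.8 in Col, with -0.65 ± 0.23. *NAC024* had 26.2 and 19.9 RPM in *clf-29*, against 33.1 and 30.1 in Col, with -0.45 ± 0.19. None of the 4 was called, and 21.1% of the tested genes in a region were lower in *clf-29* by the adjusted p. These are among the weakly marked members, and in *clf-29* only *NAC024* of the 4 lay in a region. *NAC023* lay in a region of Col alone, and *NAC071* and *NAC093* in regions of *brm-1* and Col.

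Of the 69 members 12 were called lower in *clf-29*, where 33.5% of all tested genes were. All 12 were among the 33 tested members outside regions, beside 44.5% of all tested genes outside regions. *NAC080*, cut by miR164, had 0.770 and 1.89 RPM in *clf-29*, against 5.20 and 8.28 in Col. Without Col replicate 1 this count was 5 and without Col replicate 2 it was 6. With the background taken off it was 1.

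The double mutant was close to *clf-29* at the NAC genes. In all 5 members rose more than 2-fold over Col in the double mutant, *NAC088*, *NAC057*, *NAC006*, *NAC097* and *NAC020*, all of them also called in *clf-29*. This is 5 of 69, where 4.92% of all tested genes were called higher. It is 5 of the 36 members in a region, where 14.6% of the tested genes in a region were. The log2 changes were 1.52 ± 0.18, 1.30 ± 0.09, 1.27 ± 0.12, 1.19 ± 0.11 and 1.13 ± 0.10 in that order. *NAC025* (0.997 ± 0.11) and *NAC015* (0.91 ± 0.14) fell short of 2-fold. The median over the 36 members in a region was 0.54, against 0.30 for all genes in a region. By the adjusted p alone 24 members were higher, beside 15% of all tested genes and 44.9% of those in a region. The count was 38 scaled on the genes outside all regions and 8 with the background taken off and rescaled. The comparisons of *brm-1*, *clf-29* and the double mutant with Col share the Col libraries.

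A further 12 members were called lower in the double mutant than in Col, where 40.3% of all tested genes were. All 12 were among the 33 tested members outside regions, beside 54.9% of all tested genes outside regions. *NAC096*, the most covered of these 12, had 7.71 and 13.4 RPM in the double mutant, against 25.7 and 20.9 in Col, a log2 change of -1.11 ± 0.26 (adjusted p 0.00143, limma). Without Col replicate 1, Col replicate 2 or *brm-1 clf-29* replicate 2 the count of 12 became 4, 3 or 6. The split of 5 higher and 12 lower was 1 and 20 scaled on the genes of Col regions, 35 and 0 scaled on the genes outside all regions, 27 and 0 scaled on all tested genes, 9 and 0 with the background taken off, and 1 and 4 with it taken off and rescaled.

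Between the double mutant and *clf-29* no NAC gene differed by the call. There were 0 higher, where 0.29% of all tested genes were, and 0 lower, where 0.0624% were. By limma-voom the counts were also 0 and 0, and at an unadjusted p under 0.05 they were 2 and 5. The 95% interval of the difference at *NAC088* ran from -0.32 to 0.41 on the log2 scale. A change of 2-fold lies outside this interval, and smaller changes within it were not told apart from no change.

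Between the double mutant and *brm-1*, 20 NAC genes were higher by the adjusted p, beside 10.1% of all tested genes and 29.7% of those in a region. The count was 3 scaled on the genes outside all regions, 10 scaled on all tested genes and 4 with the background taken off and rescaled. None was higher by more than 2-fold as well, where 1.39% of all tested genes were. The largest was *NAC006*, with 136 and 118 RPM in the double mutant, against 72.9 and 60.9 in *brm-1*, a log2 change of 0.92 ± 0.12. By limma-voom 0 were called, and at an unadjusted p under 0.05 it was 24. Without *brm-1* replicate 1 the count called was 3.

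In all 2 NAC genes were called lower in the double mutant than in *brm-1*, *NAC071* and *NAC011*, where 5.18% of all tested genes were. *NAC071*, a gene of tissue reunion after wounding, had 17.0 and 11.8 RPM in the double mutant and 31.2 and 28.2 in *brm-1*. It had 20.4 and 13.7 RPM in *clf-29* and 30.9 and 25.2 in Col. The libraries of *clf-29* and of the double mutant were all below those of *brm-1* and Col, and *brm-1* was like Col (log2 change 0.08 ± 0.23). The log2 change in the double mutant against *brm-1* was -1.01 ± 0.23 (adjusted p 0.00196, limma), just past 2-fold. Without *brm-1* replicate 1 it was -0.94 and without *brm-1 clf-29* replicate 2 it was -0.76, and the call was lost in both, as it was with a pseudocount of 4 and with the background taken off. The log2 change itself was -1.14 with the background taken off and -1.33 with it rescaled. *NAC011*, outside every region and named after its values were seen, had 5.68 and 2.87 RPM in the double mutant, against 11.4 and 13.1 in *brm-1*.

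The libraries of *clf-29* and the double mutant were below those of *brm-1* and Col on either side of the midpoint of *NAC071*, a description with no test. From the midpoint to the end of the gene the level was 23.4 and 21.1 RPM per kb in *brm-1*, 18.3 and 10.2 in *clf-29*, 15.8 and 8.96 in the double mutant, and 23.9 and 21.1 in Col. From the start to the midpoint it was 10.2 and 9.33 in *brm-1*, 3.74 and 4.60 in *clf-29*, 2.63 and 3.79 in the double mutant, and 9.46 and 6.08 in Col. In the kb upstream, which holds the promoter printed above, it was 10.85 and 15.03 in *brm-1*, 5.39 and 2.37 in *clf-29*, 3.65 and 6.39 in the double mutant, and 7.66 and 5.63 in Col. The stretch 3 to 4 kb past its start, inside the anion transporter gene *ALMT12*, had the opposite order, with 88.2 and 65.8 RPM in *clf-29* and 73.5 and 59.7 in the double mutant, against 47.6 and 46.6 in *brm-1* and 42.7 and 33.1 in Col.

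At *NAC097*, *NAC020* and *NAC015* the higher level in *clf-29* extended upstream of the start. The 1 kb before *NAC097*, which holds the promoter printed above, had 87.0 and 95.6 RPM per kb in *clf-29*, against 50.1 and 42.4 in Col. That before *NAC020* had 88.2 and 93.3 in *clf-29*, against 39.1 and 40.1 in Col, and that before *NAC015* had 45.8 and 58.2 in *clf-29*, against 29.01 and 27.2 in Col. At *NAC057* the upstream kb was also higher in *clf-29*, with 31.2 and 39.3 RPM per kb, against 18.1 and 20.2 in Col. It had less than the gene from start to midpoint, which had 149 and 162 in *clf-29*, against 53.3 and 56.9 in Col. The kb before *NAC088* was on average below the input in every genotype, at 6.54 and 7.58 in *clf-29*, against 4.93 and 3.31 in Col. The mark of *NAC088* thus lay in the gene and past its end, where the kb downstream had 38.5 and 38.8 in *clf-29*, against 19.4 and 20.5 in Col.

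**Figure D4:**
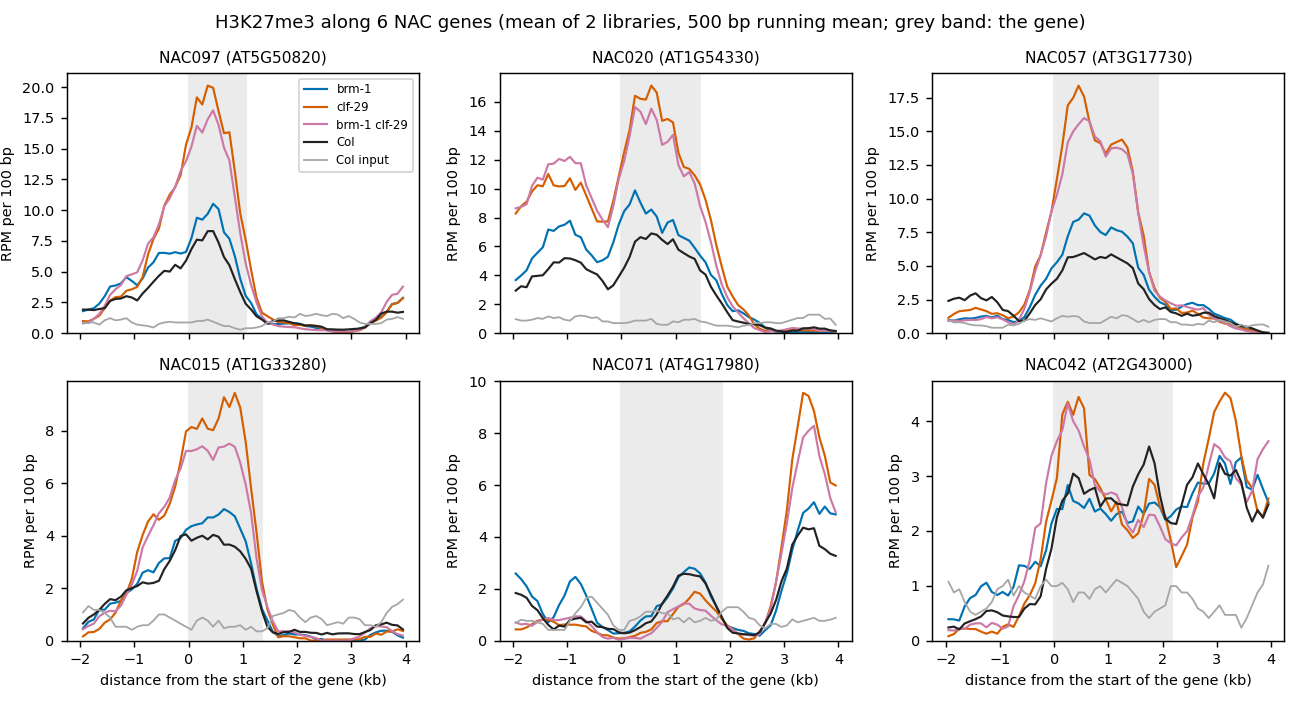
Mean ChIP signal of 2 libraries along 6 NAC genes in RPM per 100 bp (running mean over 500 bp) against the distance from the start in kb, with the gene shaded and the Col input in grey. *NAC097*, *NAC020*, *NAC057* and *NAC015* have *clf-29* and the double mutant above *brm-1* and Col across the gene. *NAC071* has them below within the gene and above at 3 to 4 kb, and *NAC042* has all genotypes close together.

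Some marked NAC genes had nearly the same level in every genotype, and they are named here after their values were seen. *NAC042* (*JUB1*) had 55.1 and 53.0 RPM in *brm-1*, 59.3 and 68.7 in *clf-29*, 59.7 and 63.5 in the double mutant, and 60.5 and 60.6 in Col. *NAC086* had 96.0 and 90.2 RPM in *brm-1*, 93.9 and 99.0 in *clf-29*, 94.2 and 95.8 in the double mutant, and 95.8 and 99.0 in Col. The 95% interval of the *clf-29* change ran from -0.20 to 0.35 at *NAC042* and from -0.23 to 0.20 at *NAC086*, so a change near 2-fold lies outside both. *NAC060* had 49.8 and 46.2 RPM in *brm-1*, 50.4 and 46.4 in *clf-29*, 46.3 and 45.7 in the double mutant, and 49.3 and 46.4 in Col. *NAC010* (*SND3*) was higher in *brm-1* by the adjusted p (0.0295, limma), with log2 changes of 0.33 ± 0.12 in *brm-1*, 0.15 ± 0.12 in *clf-29* and 0.11 ± 0.12 in the double mutant. Levels that are equal here on the RPM scale were not equal under scaling on genes outside all regions, where *NAC086* was 1.27 in *brm-1*, 1.12 in *clf-29* and 1.23 in the double mutant.

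*NAC086* and *NAC045* act together in sieve elements and had different values. *NAC045* had 164 and 151 RPM in *brm-1*, 236 and 243 in *clf-29*, 186 and 195 in the double mutant, and 141 and 152 in Col. Its log2 change in *clf-29* was 0.71 ± 0.08, against -0.01 ± 0.11 at *NAC086*, and the difference between the genes was not tested.

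At 12 marked NAC genes the change that goes with *brm-1* was lower in the *clf-29* background than in the Col background. The difference between the change of the double mutant over *clf-29* and that of *brm-1* over Col passed the adjusted p (limma) at 13 of 69 members. It was negative at 12 members, all in a region, where 2.59% of all tested genes and 8.03% of tested genes in a region were. It was positive at 1, *NAC014*, where 7.63% of all tested genes were. The median of the difference was -0.22 over all tested genes in a region. *NAC049* had the most negative value (-0.61 ± 0.19), with 74.7 and 80.5 RPM in the double mutant over 72.8 and 86.6 in *clf-29*, and 60.1 and 69.9 in *brm-1* over 41.3 and 45.0 in Col. *NAC075* had the smallest adjusted p (0.0197, limma), with 353 and 405 RPM in the double mutant over 412 and 436 in *clf-29*, and 316 and 345 in *brm-1* over 267 and 274 in Col, a difference of -0.45 ± 0.10. At both genes the *brm-1* libraries were above Col, and the double mutant overlapped *clf-29* at *NAC049* and lay below it at *NAC075*.

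The calls of these differences followed the scaling and single libraries. Scaled on the genes of Col regions, 0 members were called negative and 6 positive. Of all 32062 tested genes, 137 were called negative and 6191 positive under this scaling. The differences at the 12 genes stayed negative there, from -0.18 at *NAC074* to -0.40 at *NAC049*, without a call. With the background taken off the count of calls was 0. It was also 0 without Col replicate 1, Col replicate 2, *brm-1* replicate 2 or *brm-1 clf-29* replicate 1, it was 3 without *clf-29* replicate 2 and 1 without *brm-1 clf-29* replicate 2, and it was 20 without *brm-1* replicate 1.

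**Figure D5:**
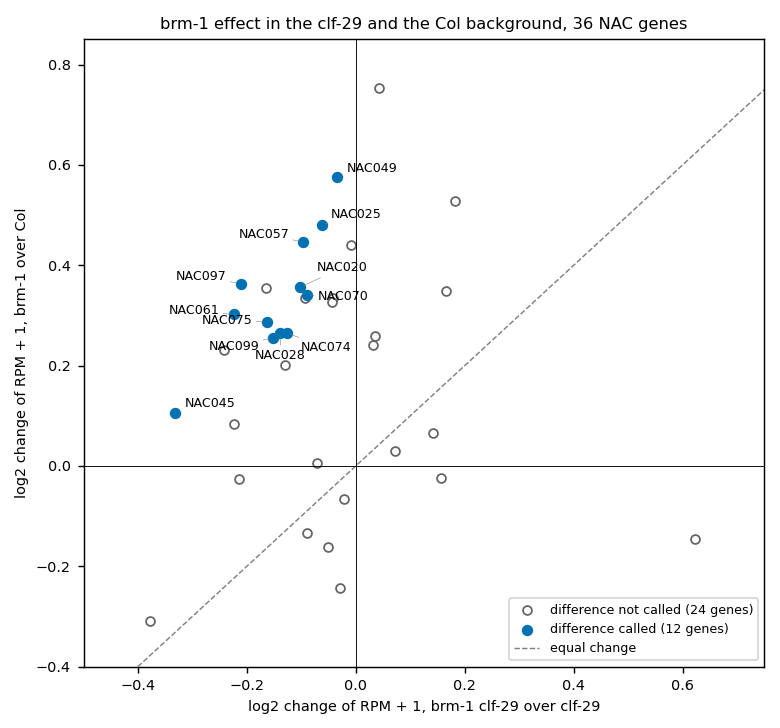
Log2 change of RPM + 1 in the double mutant over *clf-29* (horizontal) against that in *brm-1* over Col (vertical), 1 point for each of the 36 NAC genes in a region. The 12 filled points passed the test of the difference and lie above the line of equal change. All values are between -0.31 and 0.75 on the vertical axis.

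Of 11 pairs of NAC genes less than 10000 bp apart, 4 had both genes in a region, 6 had neither gene in one and 1 had a single gene in a region. *NAC046* and *NAC047*, a gene of leaf movement under waterlogging, are 6103 bp apart and had 39.4 and 11.6 RPM per kb in Col. *NAC047* had 17.3 and 16.6 RPM in *clf-29*, against 21.1 and 23.8 in Col, and lay in a region of every genotype but *clf-29*. *NAC048* and *NAC049* are 997 bp apart on opposite strands and had 7.29 and 29.2 RPM per kb in Col. *NAC048* lay in a region of the double mutant alone, at 18.3 and 16.3 RPM there, against 12.3 and 14.2 in Col. *NAC3* (AT3G15500) and *NAC2* (AT3G15510) had 15.1 and 29.2 RPM per kb in Col, and *NAC073* and *NAC074* had 36.4 and 51.3. *NAC065*, at 10.3 RPM per kb, lay in a region, and its neighbour *NAC064*, at 4.53, did not. The 6 pairs with no gene in a region had Col levels from 1.71 to 7.06 RPM per kb.

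Of the 13 CUC, VND and NST loci, 4 were called higher in *clf-29* (*CUC2*, *VND3*, *NST1* and *NST3*, with log2 changes from 1.01 to 1.51) and 2 in the double mutant (*CUC2* and *VND3*), and 0 in *brm-1*. All 13 lay in a region of at least 1 genotype, and of all tested genes in a region 14.2% were called higher in *clf-29*, 14.6% in the double mutant and 0.929% in *brm-1*. Their median log2 change in *clf-29* was 0.59, against 0.69 at the 36 NAC genes in a region. Of 14 further NAC-domain loci with another symbol, 5 lay in a region of Col and 0 were called higher in *clf-29*.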

How the data were processed

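H3K27me3 ChIP-seq and input libraries of Col, both single mutants and the double mutant were used as deposited. Per the labels and the methods, the authors mapped the reads to TAIR10 with Bowtie 0.12.7, kept perfectly and uniquely mapped reads and called regions with SICER 1.1. The deposited files list 1 read of 51 bp per line, with a score of 0 throughout and no count, and replicates are not pooled. Libraries hold 3901085 to 7277025 reads for ChIP.

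Groups follow the sample labels. Reads that repeated a position and strand were dropped (38.6% to 53.3% of the ChIP reads). The 5′ end was moved by 75 bp and counted per RefSeq gene of TAIR10.1 (chromosomes identical in length to those of the files), with genes under 1000 bp widened to that length, and scaled to the reads kept. Log2(RPM + 1) of the 8 ChIP libraries was fitted with limma 3.58.1 (R 4.3.3, trend) over 32062 genes that held 10 or more reads in 2 or more libraries, with Benjamini-Hochberg adjustment over all of them. Fold changes on this scale understate those of low genes. Calls needed more than 2-fold and an adjusted p under 0.05, the difference of the *brm-1* effect only the latter. The files hold reads and no count column, and no negative binomial test was run. Regions were modelled on SICER in Python 3.11.15, with 200 bp windows, gaps up to 600 bp and an adjusted p under 0.01 against the input of the genotype, and had to be shared by both replicates. The fit was tested on simulated data in which all libraries shared the same mean rate per gene, apart from genes changed in *brm-1*. The simulation held no background difference between genotypes, so it does not check calls under the background difference seen here.

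*NAC2* and *NAC3* each name a pair of loci and are given with their locus, as is *NAC6*. Members not tested were *NAC027*, *NAC032*, *NAC077*, *NAC083* and *NAC102*. The members, role lists and motifs were chosen with earlier results of these data known. Genes were named as follows: region members called with at least 20 reads and no overlap of replicates (up to 8 per contrast and direction), the 10 highest in Col, adjacent members in a region, up to 4 per role with the largest change in *brm-1*, and up to 8 region members with a called difference of the *brm-1* effect. *NAC011*, *NAC023*, *NAC024*, *NAC042*, *NAC045* as a pair with *NAC086*, *NAC060*, *NAC062*, *NAC064*, *NAC086*, *NAC093*, *NAC096*, *NAC099* and the CUC, VND and NST loci were named after their values were seen. The alternatives covered all deposited reads, 3 scalings, background subtraction with and without rescaling, pseudocounts of 0.25 and 4, no filter, limma-voom, a replicate block, 500 bp of flank and leaving out each library.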

Additional observations from a re-analysis of the deposited data

Results flagged for a closer look

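The *brm-1* effect differed between the *clf-29* and the Col background at 13 NAC genes by the limma test of the difference itself (adjusted p under 0.05), which is the change of the double mutant over *clf-29* minus that of *brm-1* over Col. On the log2 scale it was -0.61 at *NAC049*, -0.57 at *NAC097*, -0.54 at *NAC025*, -0.54 at *NAC057*, -0.53 at *NAC061*, -0.46 at *NAC020*, -0.45 at *NAC075*, -0.44 at *NAC045*, -0.43 at *NAC070*, -0.41 at *NAC099*, -0.40 at *NAC028* and -0.39 at *NAC074*, all in a region. At 11 of these 12 genes the *brm-1* change over Col was between 0.26 and 0.58, and at *NAC045* it was 0.11 with a change of -0.33 in the double mutant over *clf-29*. The median of all tested genes in a region was -0.22 for the same difference, and that of all tested genes was 0.59. The calls followed the scaling and single libraries, as described above. With the libraries scaled on the genes of Col regions, none of the 12 negative differences was called. None was called with the background taken off either.

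The opposite sign was found at *NAC014*, a gene of a membrane-anchored factor outside all regions, with a difference of 2.42. It had 4.06 and 3.83 RPM in the double mutant over 2.70 and 1.89 in *clf-29*, and 1.67 and 1.13 in *brm-1* over 7.94 and 6.95 in Col. These levels were below the input in each genotype, and the median background of genes outside regions was 0.880 and 1.40 RPM per kb in *brm-1*, against 2.99 and 3.07 in Col. With the background taken off, the difference at *NAC014* was 0.079 and its change in *brm-1* over Col was 0.0.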

How the results depend on the processing

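Counts of called NAC genes depended mainly on the scaling. With the libraries scaled on genes of Col regions, on genes outside all regions, on all tested genes, with the background taken off, and with the background taken off and rescaled, the higher calls were 0, 40, 26, 0 and 0 in *brm-1*, 4, 32, 24, 11 and 1 in *clf-29*, and 1, 35, 27, 9 and 1 in the double mutant, each against Col. The lower calls were 16, 0, 1, 0 and 0 in *brm-1*, 20, 0, 2, 1 and 4 in *clf-29*, and 20, 0, 0, 0 and 4 in the double mutant. Of all 32062 tested genes, 64, 11064, 7478, 418 and 87 were called higher in *brm-1* in the same order. They were 346, 7476, 5498, 2625 and 405 in *clf-29*, and 459, 8764, 6342, 2821 and 745 in the double mutant. Called lower were 15016, 282, 1537, 301 and 207 of all tested genes in *brm-1*. They were 16135, 359, 1273, 1730 and 3428 in *clf-29*, and 17263, 313, 1600, 1617 and 3191 in the double mutant. Among the NAC genes a pseudocount of 4 gave 1, 2 and 1 lower calls in these genotypes, and all deposited reads gave 8 higher calls in the double mutant. For the double mutant against *brm-1* the higher calls were 1 when scaled on all tested genes, and the lower calls were 0 with the background taken off, 1 with it rescaled and 0 with a pseudocount of 4. For the difference of the *brm-1* effect the calls were 6, 38, 34, 0 and 0 under the 5 scalings in the order above, 6 with all deposited reads, 5 and 20 with pseudocounts of 0.25 and 4, and 22 with the replicate number as a block. The differences between replicates 1 and 2 correlated weakly between genotypes, at 0.060 to 0.105 among the mutants and -0.012 to 0.015 between a mutant and Col. Whether replicate numbers pair the libraries was not tested. The replicate block changed no other count by over 1.5 times. Leaving out 1 library gave 1 to 13 lower calls in *brm-1*, 6 to 10 higher and 5 to 12 lower in *clf-29*, 5 to 7 higher and 3 to 13 lower in the double mutant, 0 to 3 higher and 1 to 2 lower in the double mutant against *brm-1*, and 0 to 20 for the difference of the *brm-1* effect. The higher calls in *brm-1* and both counts of the double mutant against *clf-29* stayed at 0. With 1 library of a genotype left out, the remaining one is assumed to vary like the other groups. Scaling on genes outside all regions reversed *brm-1* values to 1.02 at *NAC046*, 1.22 at *NAC048*, 1.30 at *NAC2* (AT3G15510), 1.17 at *NAC042*, 1.27 at *NAC086*, 1.05 at *NAC093*, 1.12 at *NAC023* and 1.05 at *NAC011*, the *clf-29* value to 1.12 at *NAC086*, and the double mutant values to 1.23 at *NAC086*, 1.196 at *NAC060* and 1.02 at *NAC023*. Taking the background off reversed *NAC053* to 0.057 in *clf-29* and 0.25 in the double mutant, and to 0.056 in the double mutant after rescaling. The reversals listed are those in which the main or the alternative value was called. Other values changed sign with no call. An example is *NAC016* in *brm-1*, from -0.89 to 0.33 when scaled on genes outside all regions. The cause was not tested. The 12 alternatives gave 1788 values for 149 log2 changes, and 1460 of these values kept the call of the main fit or its absence. Values that changed sign with no call in either fit are counted among the 1460. The counts of NAC genes in a region stayed between 31 and 37 under stricter and looser region settings. Members outside regions rest on few reads, which limits their values.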
